A study of Mus musculus with 80 samples.

Results

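The hippocampus and the amygdala are neighbouring structures of the temporal forebrain, and their difference in gene expression was measured here in the same female mice. The comparison took all hippocampus libraries against all amygdala libraries of the series, in both reproductive states, paired by the animal number in their labels. It held 30 of the 77 libraries analysed, 15 from the hippocampus and 15 from the amygdala, and each region had 7 virgin and 8 primiparous females. Both regions were present for 14 animals, 6 virgin and 8 primiparous, and the test of the difference used these 28 libraries.

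All animals were females of the inbred strain C57BL/6, given as C57BL/6J in the study's methods. The primiparous females had been mated at 8 weeks of age and had raised and weaned 1 litter. Their tissue was taken 3 weeks after weaning according to the labels, while the study's methods give a longer interval. The virgin females were of the same age and were never housed with a male. Each library came from 1 animal. The whole region was dissected, from the left side only for both of these regions, so that every library is a mixture of all cell types of the region and of any adjoining tissue taken with it. In such bulk tissue, fewer cells of a type and less RNA per cell cannot be told apart. The libraries of a region were pooled together for sequencing, so that region and sequencing pool cannot be told apart either. Reads counted on genes numbered 14404113 to 37871854 per hippocampus library (median 21527911) and 11248560 to 19628734 per amygdala library (median 14633202).

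The hippocampus is built of a few layers of densely packed excitatory neurons, namely the granule cells of the dentate gyrus and the pyramidal cells of fields CA1, CA2 and CA3, and it is known for its part in spatial and episodic memory. The amygdala is a group of nuclei of unlike origin. Its basolateral nuclei hold cortex-like glutamate neurons, its central nucleus and intercalated cell masses hold GABA neurons related to those of the striatum, and its medial nucleus receives cells from hypothalamic progenitors and responds to sex steroids and social odours. The amygdala is known for its part in fear, reward and social behaviour.

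Some libraries stood apart in markers of other tissue, summed over lists of genes in CPM, counts divided by the total count on genes and scaled to 1000000. The sum of the 8 cerebellum markers tested was 628 CPM in the hippocampus library of primiparous animal 413 and 22 to 63.4 CPM in the other 14 hippocampus libraries. The sum of the 8 choroid plexus markers tested was 931, 1065, 3624 and 4034 CPM in the hippocampus libraries of animals 4488, 421, 4487 and 425 and 67.4 to 193 CPM in the other 11, while the amygdala libraries held 21.7 to 103 CPM. The sum of the 11 endothelial markers tested was 54.3 CPM in the amygdala library of virgin animal 4486 and 179 to 363 CPM in the other 14. Animal 4487 has no amygdala partner and was not in the test. The count of genes with a difference of at least 2-fold, 843 over all animals, was 838 without animal 413, 839 without animal 4486 and 847 without animals 421, 425 and 4488. A few single genes, but not every gene that stood apart in these libraries, are given with and without them.

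Of 13016 genes tested, 7467 (57.4%) differed between the regions at an adjusted p under 0.05 in edgeR's quasi-likelihood F-test with the animal as a block. Of these, 3746 (28.8%) were higher in the hippocampus and 3721 (28.6%) were higher in the amygdala. Many of these differences were small. The median size among the called genes was 0.334 on the log2 scale, and 2812 of them differed by less than 1.2-fold. The smallest difference called was 0.0785 on the log2 scale, and the genes called at the smallest differences were Tspan3, 2610507B11Rik and Dnajc18, whose libraries overlapped between the regions and whose calls were lost in several of the alternatives that left out 1 animal. Tspan3, for example, measured between 294 and 315 CPM in the hippocampus and between 292 and 349 CPM in the amygdala.

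Differences of at least 2-fold were therefore counted separately. They were found for 843 genes (6.48%), of which 342 (2.63%) were higher in the hippocampus and 501 (3.85%) were higher in the amygdala. Beyond 8-fold, 22 genes were higher in the hippocampus and 45 were higher in the amygdala, and beyond 32-fold there were 2 and 8. In 702 of the 843 genes, all 14 animals differed in the same direction, though these genes were chosen by a test on the same animals. Among all called genes of any size, 1372 higher in the hippocampus and 1360 higher in the amygdala had 1 direction in all 14 animals. The 15 libraries of one region did not overlap with the 15 of the other in CPM for 1340 genes (10.3% of those tested), 650 (4.99%) higher in the hippocampus and 690 (5.3%) higher in the amygdala. Among the 843 genes, 571 did not overlap.

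For the 2 sets of genes, the region with the highest mean was also looked up among all regions of the series. The hippocampus had the highest mean CPM of the 5 regions for 199 of the 342 genes that were higher in it, the cerebellum for 98, the hypothalamus for 28 and the neocortex for 17. Of the 501 genes that were higher in the amygdala, the amygdala itself had the highest mean for 135, and the hypothalamus had it for 226. The neocortex was highest for 69 of them and the cerebellum for 71. These are counts of means, and no test of the order of the regions was made.

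The promoters of 4 of the genes with the largest differences are shown first, 2 from each direction, because they place these genes in the genome and let the start sites be compared. C1ql2 and Neurod6 were higher in the hippocampus, and Trh and Avp were higher in the amygdala. The sequences are the 150 bases before the annotated start in RefSeq (GRCm38.p6), on the strand of the gene. Capitals mark matches to the E-box CANNTG, the motif of basic helix-loop-helix factors such as Neurod6, which reads the same on both strands. The C1ql2 window is chr1:120340432-120340581 on the plus strand, that of Neurod6 is chr6:55681264-55681413 on the minus strand, that of Trh is chr6:92244651-92244800 on the minus strand and that of Avp is chr2:130582589-130582738 on the minus strand.
C1ql2: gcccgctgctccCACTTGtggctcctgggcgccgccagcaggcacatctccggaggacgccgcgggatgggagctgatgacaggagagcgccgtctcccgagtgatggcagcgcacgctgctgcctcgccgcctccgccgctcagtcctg
Neurod6: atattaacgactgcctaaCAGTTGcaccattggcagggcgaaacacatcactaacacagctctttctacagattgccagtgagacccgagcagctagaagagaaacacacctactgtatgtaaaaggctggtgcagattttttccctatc
Trh: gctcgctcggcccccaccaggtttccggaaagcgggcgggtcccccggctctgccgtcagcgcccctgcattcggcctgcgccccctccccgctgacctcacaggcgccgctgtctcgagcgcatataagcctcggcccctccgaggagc
Avp: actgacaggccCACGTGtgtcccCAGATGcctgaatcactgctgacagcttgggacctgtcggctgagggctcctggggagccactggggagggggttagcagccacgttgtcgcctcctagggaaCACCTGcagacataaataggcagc
The window of Avp held 3 E-boxes, those of C1ql2 and Neurod6 held 1 each, and that of Trh held 0. In the 250 bases before the start, an E-box was found in 57.5% of the 13276 promoters of tested genes. Of the 12 genes with the largest differences in each direction, 9 that were higher in the hippocampus had a promoter entry and 6 of these held an E-box. Among those higher in the amygdala, 8 had an entry, and 7 of their 9 promoters held one. The letters TGACGTCA of the cyclic AMP response element and the homeodomain core TAATTA, both searched on both strands, were in 2.49% and 2.46% of all promoters and in 0 of these. A match of such short letters is a description of the window and not of a bound site.

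The genes with the largest differences towards the hippocampus included several of its granule and pyramidal cells. Levels are given as the lowest, the median and the highest CPM of the 15 libraries of a region, and fold differences and log2 differences come from the paired edgeR fit. Dsp, which encodes the desmosomal linker desmoplakin and is a marker of dentate granule cells, measured 50.9, 74.4 and 111 CPM in the hippocampus and 0.172, 0.815 and 1.83 CPM in the amygdala. It was 87.9-fold higher in the hippocampus (log2 difference 6.46, SE 0.20, adjusted p = 1.37e-13). Lct, which encodes lactase and is another granule cell marker, measured 35.6, 60.4 and 87.3 CPM against 0.329, 1.05 and 2.64 CPM, a 58.8-fold difference. These 2 genes were the only ones that passed 32-fold towards the hippocampus, and their lowest hippocampus library was far above their highest amygdala library.

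C1ql2, a secreted synaptic organiser of the mossy fibre synapse, measured 71.6, 110 and 129 CPM in the hippocampus and 2.16, 4.52 and 10.9 CPM in the amygdala, a difference of 20.6-fold. Fibcd1, which encodes a chitin-binding membrane protein and marks CA1 pyramidal cells, measured 150, 197 and 261 CPM against 9.83, 14.5 and 22.1 CPM, or 14.6-fold (log2 difference 3.87, SE 0.068). Neurod6, a transcription factor of pallial excitatory neurons, measured 152, 182 and 205 CPM against 10.2, 18.4 and 27.8 CPM, or 10.4-fold. None of these 3 genes overlapped between the regions.

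Receptors were among the leading genes as well. Drd5, the D5 dopamine receptor, measured 17.7, 21.5 and 25.3 CPM in the hippocampus and 0.184, 1.2 and 2.9 CPM in the amygdala, a 16.3-fold difference. Adra1d, the alpha-1D adrenergic receptor, measured 71, 85.3 and 99.5 CPM against 4.03, 8.62 and 16.3 CPM, or 10.4-fold. The other 5 genes of the 12 were Olfml2b (18.4-fold), the Nodal antagonist Lefty1 (15.2-fold), the sodium-proton exchanger Slc9a4 (13.8-fold), Vwa3b (12.2-fold) and the calcium-binding protein Cabp7 (10.7-fold). The rule that chose the 12 required 1 direction in all 14 animals.

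In the other direction, the leading genes included peptide and hypothalamus-related genes. Trh, the precursor of thyrotropin-releasing hormone, measured 0, 0.271 and 1.32 CPM in the hippocampus and 4, 11.5 and 45.7 CPM in the amygdala, which was 42.3-fold higher (log2 difference -5.40, SE 0.328, adjusted p = 2.95e-10). Avp, which encodes vasopressin, measured 0.0521, 0.616 and 4.19 CPM against 1.4, 26.4 and 61.1 CPM, or 27.1-fold. The regions overlapped in Avp, as a few amygdala libraries were low. In the hypothalamus libraries of the series the mean of Trh was 92.5 CPM and that of Avp was 311 CPM, above the mean of either region described here.

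Irs4, an insulin receptor substrate, measured 5.59, 11.5 and 23.4 CPM in the amygdala against 0, 0.232 and 0.951 CPM in the hippocampus, or 32.5-fold. Baiap3, a protein of dense-core vesicle traffic, measured 93.1, 169 and 259 CPM against 4.6, 7.86 and 12 CPM, or 22.6-fold. Otof, which encodes the vesicle fusion protein otoferlin, measured 75.6, 98.5 and 131 CPM against 4.95, 6.6 and 10.8 CPM, or 13.9-fold. All 3 genes separated the 2 regions completely.

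Another 5 of these 12 genes were Igfn1 (40.2-fold), Rasgef1c (19.7-fold), Dkkl1 (14.8-fold), the forebrain transcription factor Six3 (14.3-fold) and neuroglobin, Ngb (13.4-fold). Igfn1, Rasgef1c and Dkkl1 had higher means in the neocortex (35, 35.8 and 21.9 CPM) than in the hypothalamus (0.127, 15.4 and 0.55 CPM), while Irs4, Baiap3, Six3 and Ngb had the reverse, with 168, 761, 46 and 78.6 CPM in the hypothalamus.

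**Figure D1:**
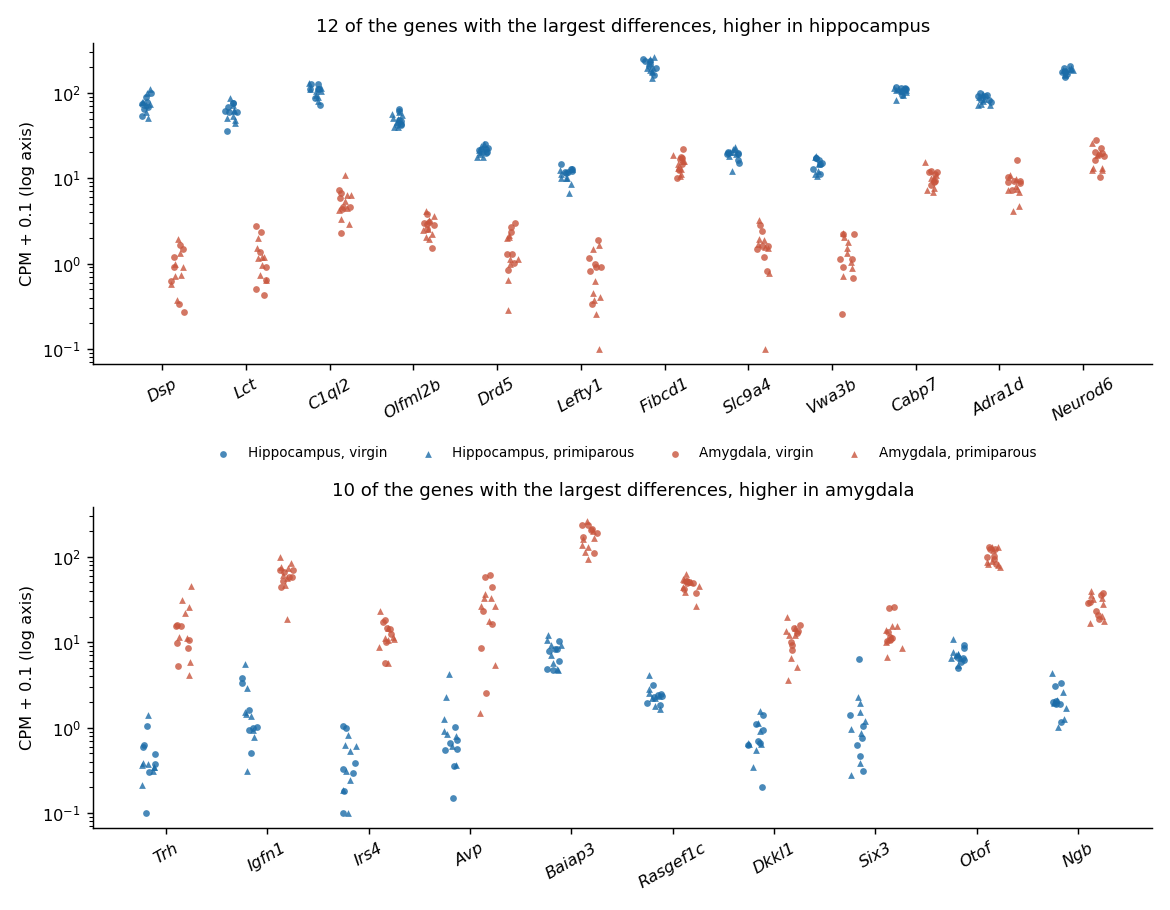
CPM + 0.1 on a log axis in each of the 30 libraries for 12 genes with the largest differences towards the hippocampus and 10 towards the amygdala, with hippocampus libraries in blue, amygdala libraries in red, virgin females as circles and primiparous females as triangles. The blue and red points of a gene do not overlap except in Avp, where the lowest amygdala library (1.4 CPM) is under the highest hippocampus library (4.19 CPM), and circles and triangles are mixed.

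Markers of the fields of the hippocampus were then described. The lists were chosen with earlier results of these data known, and their members Dsp, Lct, C1ql2 and Fibcd1 are also among the leading genes above. Counts in this and later lists compare with all genes tested, of which 28.8% were higher in the hippocampus and 28.6% in the amygdala. Of 10 granule cell markers, 8 were higher in the hippocampus, 1 was lower and 1 was not called, with a median log2 difference of 2.45 where that of all genes tested was 0.003. Prox1, the transcription factor that maintains granule cell identity, measured 44.6, 65.8 and 91.6 CPM in the hippocampus against 4.17, 8.71 and 13.4 CPM in the amygdala. The exceptions were Plk5, which was lower in the hippocampus (log2 difference -0.78, SE 0.13), and C1ql3, a close relative of C1ql2, which measured 79.4, 109 and 122 CPM against 71.5, 99.2 and 190 CPM (log2 difference 0.11, SE 0.0965, adjusted p = 0.344).

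For CA1, 8 of 10 markers were higher in the hippocampus and 2 were lower, with a median of 1.42. Pou3f1, a POU-domain factor of pyramidal cells, measured 71.7, 82.8 and 119 CPM against 8.72, 14.6 and 30.6 CPM, and Wfs1, the gene of Wolfram syndrome that is much used as a CA1 marker, measured less in the hippocampus (126, 159 and 187 CPM) than in the amygdala (185, 250 and 291 CPM). For CA2, 3 of the 6 markers tested were higher in the hippocampus and 2 were lower. Pcp4, a calmodulin regulator used to mark CA2, was among those lower in the hippocampus, with 76.8, 95.2 and 144 CPM against 99.1, 136 and 169 CPM. In the CA2 list, Avpr1b had counts too low to be tested and measured 0.343, 0.851 and 1.56 CPM against 0, 0 and 0.205 CPM. For CA3, 6 of 9 were higher and 1 was lower. Iyd, a CA3 marker also too low to be tested, measured 2.38, 4.13 and 6.61 CPM against 0, 0.136 and 0.861 CPM. Of the CA3 markers tested, the kainate receptor subunit Grik4 had the largest difference towards the hippocampus (48.6, 64.9 and 75.2 CPM against 11.5, 17.1 and 24.1 CPM). Coch went the other way (3.58, 5.78 and 9.17 CPM against 21.9, 27 and 44.2 CPM).

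Markers of the amygdalar nuclei differed between the lists. Of 8 central amygdala markers, 7 were higher in the amygdala, with a list median of -1.68, and of 9 medial amygdala markers, 8 were higher in the amygdala and 0 in the hippocampus, with a median of -2.09. All 6 intercalated cell markers were higher in the amygdala, with a median of -1.79. The 6 basolateral markers tested were split, 3 higher in each region, and their median was 0.03. Their summed level was 317 to 587 CPM in the amygdala libraries and 230 to 309 CPM in the hippocampus libraries. Tfap2d, of the same list, had counts too low to be tested. It measured 0.611, 1.31 and 3 CPM in the amygdala against 0, 0 and 0.0881 CPM in the hippocampus. The lists share members, since Penk, for example, is in 2 of them.

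Penk, the enkephalin precursor, measured 126, 163 and 270 CPM in the amygdala and 15.3, 20.2 and 29.6 CPM in the hippocampus, a 7.97-fold difference. Tac2, the neurokinin B precursor of central amygdala neurons, measured 8.71, 11 and 17.7 CPM against 0.885, 2.32 and 3.17 CPM. Prkcd, the kinase that marks one class of central amygdala neurons, was the exception, since it was slightly higher in the hippocampus (log2 difference 0.31, SE 0.0587), with 18.8, 29.1 and 82.9 CPM against 17, 22 and 31.7 CPM. Prkcd is also a gene of thalamic neurons, and the sum of the 7 thalamus markers tested was 245 CPM in the hippocampus library of virgin animal 4487 and 110 to 137 CPM in the other 14. That library was not in the test.

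In the medial amygdala list, Sim1 and Otp, helix-loop-helix and homeodomain regulators of hypothalamic neuron identity, were at the bottom of the measurable range in the hippocampus. Sim1 had a median of 0 CPM and a highest value of 0.271 CPM there, against 0, 3.11 and 8.2 CPM in the amygdala. Otp had a median of 0 and a highest value of 0.227 CPM there, against 0.267, 1.92 and 6.16 CPM in the amygdala. Ecel1, a neuronal endopeptidase-like protein, measured 30, 45.7 and 69.9 CPM in the amygdala against 2.23, 3.85 and 6.31 CPM. Esr1, the estrogen receptor alpha, measured 4.27, 9.47 and 12.8 CPM in the amygdala against 0.625, 2 and 3.67 CPM in the hippocampus, or 4.25-fold.

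Within the basolateral list, Nr2f2, the nuclear receptor COUP-TFII, measured 64.5, 91.5 and 136 CPM in the amygdala against 18.9, 26.5 and 45.9 CPM. Rspo2, a Wnt agonist used to mark anterior basolateral neurons, was higher in the hippocampus, with 14.7, 20.4 and 27.1 CPM against 5.15, 10 and 16.9 CPM. Grp, the gastrin-releasing peptide, was also higher in the hippocampus, 2.69-fold, with 8.96, 19.3 and 26.2 CPM against 2.88, 6.42 and 11.6 CPM. Lypd1, a modulator of nicotinic receptors, went with Nr2f2 (log2 difference -1.57, SE 0.0819).

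**Figure D2:**
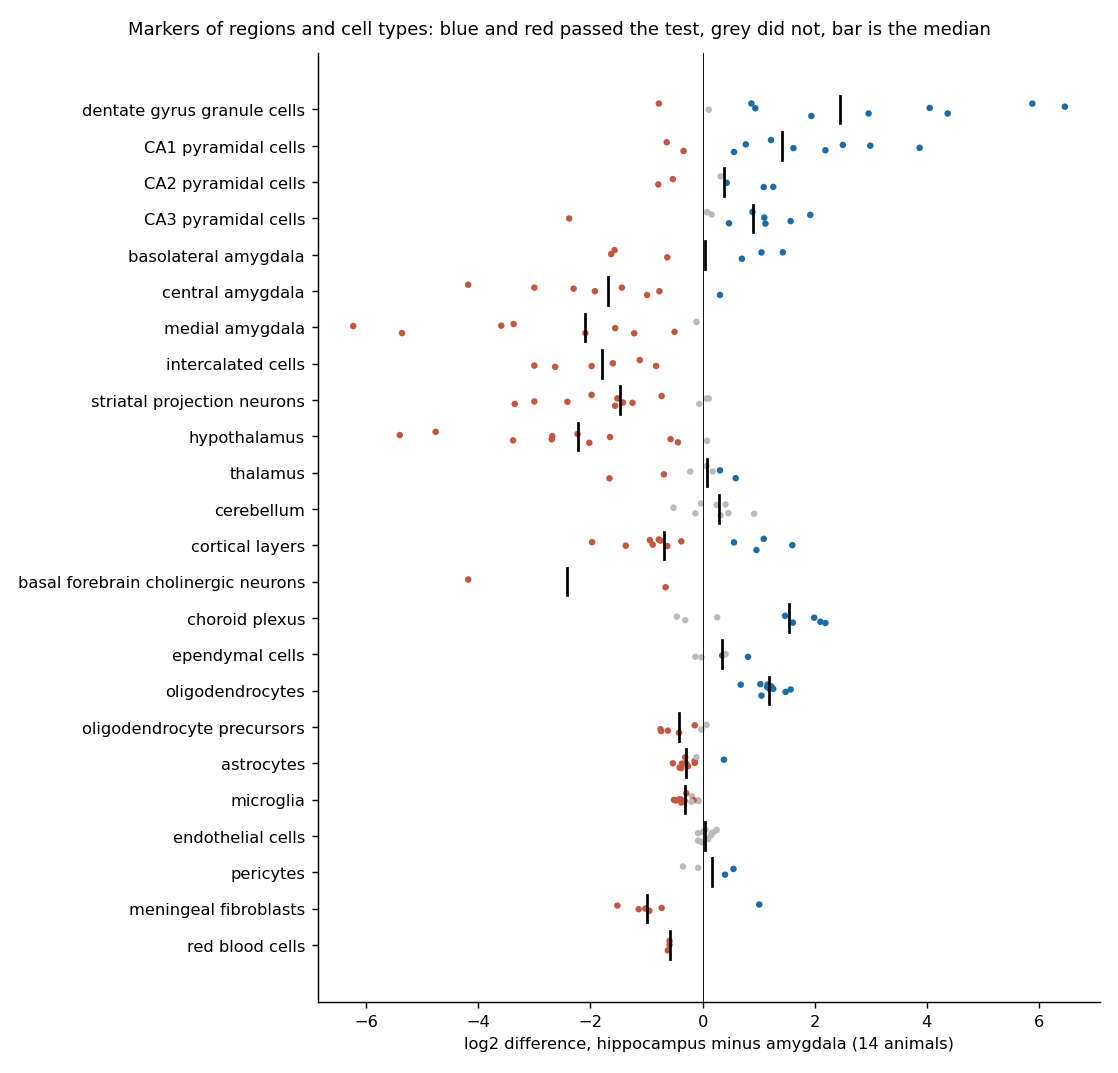
Log2 difference of each marker gene tested (hippocampus minus amygdala, 14 animals) by list, with blue and red points for genes that passed the test in either direction, grey points for those that did not and a black bar at the list's median. Granule cell, CA1 and oligodendrocyte markers lie to the right, central and medial amygdala, striatal and hypothalamus markers lie to the left, and endothelial markers surround 0.

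Most striatal and hypothalamus markers were higher in the amygdala, while thalamus markers leaned to neither region. Of 12 striatal projection neuron markers tested, 9 were higher in the amygdala and 0 in the hippocampus, with a median of -1.47. The 3 members that did not pass the test were Pde10a, Rasd2 and Gng7, with log2 differences between -0.06 and 0.11. Of 11 hypothalamus markers, 10 were higher in the amygdala and 1 was not called, with a median of -2.23, and in either state alone 6 were called higher in the amygdala. With the filter on low counts applied to the 30 libraries of these 2 regions, which tests fewer genes, 2 of them were called. Their summed level was 24.1 to 103 CPM in the amygdala libraries, 4.51 to 20.1 CPM in the hippocampus libraries and 1335 CPM at the median in the hypothalamus libraries. The defining markers Hcrt and Pmch of the lateral hypothalamus measured 0, 0.4 and 15.8 CPM and 0, 0.739 and 6.01 CPM in the amygdala, and the highest value of Hcrt was in animal 427, whose library also had the highest sum of the list. Of 7 thalamus markers tested, 2 were higher in the hippocampus, 2 in the amygdala and 3 were not called, with a median of 0.07. These counts lie near the shares over all genes tested, 28.8% and 28.6%. Of 8 markers of basal forebrain cholinergic neurons, 2 passed the filter and both were higher in the amygdala, but 1 was called in either state alone and without animal 405, 409, 418, 421, 425, 427, 4486 or 4489. Their summed level was 1.55 to 15.3 CPM in the amygdala and 0.681 to 2.48 CPM in the hippocampus. Chat, the enzyme that makes acetylcholine, was among those under the filter and measured 0, 1.3 and 8.3 CPM in the amygdala against 0, 0.0354 and 0.208 CPM in the hippocampus. The lists do not separate neurons of the amygdala that use these genes from hypothalamic, striatal or basal forebrain tissue taken with it, and their part in the amygdala differences was not tested.

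The libraries that stood apart bear on a few genes. Of the 8 choroid plexus markers, 5 were called higher in the hippocampus and 0 in the amygdala with all animals, and in either state alone, or with the filter applied to the 30 libraries, 2 were called higher in the hippocampus. Without animals 421, 425 and 4488, 3 were called higher in the hippocampus and 2 in the amygdala. Ttr, the transthyretin that choroid plexus secretes, had a log2 difference of 2.19 (SE 0.732) with all animals and 1.26 without these 3. Kl, which encodes klotho, had a difference of 1.99 (SE 0.243) with all animals and 1.63 without them, and measured 24.8, 32.6 and 176 CPM against 3.18, 10.3 and 15.9 CPM in all libraries. The prolactin receptor Prlr, by contrast, had a difference of -0.31 (adjusted p = 0.501) with all animals and -0.84 without the 3, which passed the test. None of the 8 cerebellum markers passed the test with all animals. Without animal 413, 1 was called higher in the amygdala, and without animal 409, 425, 4488 or 4491, 1 was called higher in the hippocampus. In virgin animals alone 2 were called higher in the amygdala, and in primiparous animals alone 1 was called higher in the hippocampus. Gabra6, the GABA-A subunit of cerebellar granule cells, had a difference of 0.25 with all animals and -0.28 without animal 413, neither of which passed. The parvalbumin gene Pvalb, which is strongly expressed in cerebellum too, had a difference of 1.81 with all animals and 1.71 without animal 413.

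Among glia, the oligodendrocyte markers stood out. All 12 were higher in the hippocampus, 11 of them at least 2-fold, with a median log2 difference of 1.19. Their summed level was 4458 to 7382 CPM in the hippocampus and 1797 to 4456 CPM in the amygdala, so that the highest amygdala library lay just under the lowest hippocampus library. At the median, the sum was 5830 CPM in the hippocampus and 2588 CPM in the amygdala. It was 5254 CPM in the neocortex, 5956 CPM in the hypothalamus and 6026 CPM in the cerebellum, so that the amygdala stood apart as the low region. Mbp, the myelin basic protein gene, measured 2216, 3134 and 3891 CPM in the hippocampus against 925, 1369 and 2501 CPM in the amygdala. Cnp had the smallest difference of the list, 0.68 (SE 0.0902).

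The precursors of these cells did not follow. Of 7 oligodendrocyte precursor markers, 0 were higher in the hippocampus and 5 were higher in the amygdala, with a median of -0.42. Pdgfra, the growth factor receptor that defines these cells, measured 96.6, 111 and 142 CPM in the amygdala against 61.3, 67.3 and 75 CPM in the hippocampus. Astrocyte and microglia markers also leaned to the amygdala by small amounts, with 10 of 12 and 8 of 12 called higher there and a median of -0.30 for both. In virgin animals alone these counts were 5 and 4, and in primiparous animals alone 11 and 9. Gfap, the intermediate filament of astrocytes, was the 1 astrocyte marker higher in the hippocampus (452, 512 and 620 CPM against 239, 375 and 726 CPM).

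Vessel markers gave no common direction. Of the 11 endothelial markers, 0 passed the test, and their log2 differences ranged from -0.08 to 0.25. Of 4 pericyte markers tested, 2 were higher in the hippocampus, and 1 of them, Rgs5, had a difference of 0.40 (adjusted p = 0.0465) that no longer passed the test without animal 4486 (0.33, adjusted p = 0.0765) or without any of 8 other animals left out in turn. Of 6 meningeal fibroblast markers tested, 5 were higher in the amygdala and 1, the proteoglycan gene Dcn, was higher in the hippocampus. All 3 red blood cell genes tested were higher in the amygdala, by log2 differences of -0.59 to -0.62, and Hba-a2 among them has a near-identical copy with which it can share reads. In virgin animals alone 1 of the 3 was called, and in primiparous animals alone 0. Of 5 ependymal markers tested, 2 were higher in the hippocampus, and 1 was without animal 405, 425, 427, 4486, 4488 or 4489 and in either state alone.

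Genes of the 2 main transmitters differed in opposite directions. Of 10 genes of GABA neuron identity, 9 were higher in the amygdala and 1 in the hippocampus, with a median of -0.58. Gad2, the synaptic form of the GABA-making enzyme, measured 179, 265 and 327 CPM in the amygdala against 149, 172 and 207 CPM in the hippocampus. Gad1, the other form of the enzyme, was slightly higher in the hippocampus (log2 difference 0.13, SE 0.0462). Of 7 genes of glutamate neurons, 5 were higher in the hippocampus. The vesicular transporters divided, since Slc17a7, the cortical form, differed by 0.17 towards the hippocampus, and Slc17a6, the form of thalamus and hypothalamus, was 3.17-fold higher in the amygdala (36.1, 63.2 and 103 CPM against 10.4, 21.4 and 39.9 CPM). Slc17a8, which marks some GABA and serotonin terminals, had low levels and was higher in the hippocampus (4.17, 5.55 and 7.86 CPM against 0.78, 1.63 and 4.02 CPM).

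Of 12 interneuron genes, 4 were higher in the hippocampus, 6 in the amygdala and 2 were not called. Pvalb, of fast-spiking interneurons, measured 26.1, 31.3 and 82.1 CPM against 6.7, 9.06 and 12.5 CPM. Vip, of interneurons that inhibit other interneurons, was lower in the hippocampus (14.6, 17.4 and 22.1 CPM against 24.1, 31.8 and 40.2 CPM), and Npy measured 43.4, 49.4 and 58.3 CPM against 36.6, 49.9 and 57.6 CPM (log2 difference 0.01, SE 0.0519).

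Neuropeptides were higher in the amygdala far more often than in the hippocampus. Of 21 peptide precursors tested, 16 were higher in the amygdala, 3 in the hippocampus and 2 were not called, with a median of -0.99. Beside Trh, Avp, Penk and Tac2, the largest differences included Cartpt, the precursor of a peptide of feeding and reward, with 13.9, 21.2 and 33.6 CPM in the amygdala against 1.13, 2.06 and 3.01 CPM. Adcyap1, which encodes the peptide PACAP, measured 15.9, 22.3 and 30.8 CPM against 3.69, 4.9 and 6.7 CPM. Crh, the corticotropin-releasing hormone, measured 4.97, 7.79 and 10 CPM against 1.91, 2.76 and 4.65 CPM. None of these 3 overlapped. Oxt, which encodes oxytocin, was low in both regions, with 0.222, 4 and 8.1 CPM in the amygdala and 0, 0.208 and 2.59 CPM in the hippocampus, and 2 of 14 animals went against the direction. Grp, Cck and Nmb were the 3 peptides higher in the hippocampus.

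Of 27 peptide receptors tested, 17 were higher in the amygdala, 6 in the hippocampus and 4 were not called, with a median of -0.56. Tacr1, the substance P receptor, measured 9.7, 14.8 and 21.6 CPM in the amygdala against 0.596, 1.44 and 2.84 CPM in the hippocampus, or 8.56-fold. Oprk1, the kappa opioid receptor, measured 5.59, 7.86 and 12.3 CPM against 0.534, 1.18 and 1.79 CPM. Cckbr, the brain receptor of cholecystokinin, measured 29.2, 50.8 and 57.4 CPM against 7.13, 9.16 and 13 CPM, although its ligand gene Cck differed by 0.28 in the other direction.

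The oxytocin receptor Oxtr had a log2 difference of -1.12 (SE 0.0969) and was higher in the amygdala in 14 of 14 animals, with 15.7, 25.7 and 41.1 CPM against 6.49, 11.6 and 16.2 CPM. Receptors of neuropeptide Y went the other way. Npy2r measured 42.4, 60.1 and 71 CPM in the hippocampus against 17, 22.7 and 36.1 CPM, and Npy1r and Npy5r were higher there by 0.67 and 1.09, while Npy itself was not called. The somatostatin receptors were split, with Sstr4 3.23-fold higher in the hippocampus, Sstr2 lower there by -1.42 and Sstr3 near 0 (-0.03, SE 0.0636).

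Single receptors and enzymes of steroid hormones differed by several fold. The mineralocorticoid receptor Nr3c2, which binds corticosterone with high affinity, measured 117, 145 and 160 CPM in the hippocampus against 25.9, 31.7 and 38.1 CPM in the amygdala, or 4.42-fold (log2 difference 2.14, SE 0.0538, adjusted p = 7.85e-21). The glucocorticoid receptor Nr3c1 differed by only 0.16 (SE 0.052). Hsd11b1, the enzyme that regenerates active glucocorticoid, measured 25.1, 30.9 and 40.7 CPM against 6.16, 7.31 and 12.1 CPM. Of 7 such genes tested, these 3 were higher in the hippocampus, Esr1 was higher in the amygdala, and 3 were not called, among them Srd5a1 and the progesterone receptor Pgr. Pgr measured 23.4, 28.2 and 33.4 CPM against 22.2, 27.9 and 33.6 CPM. Of all genes tested, 57.4% were called. Under the filter, Cyp19a1 and Esr2 had medians of 0.56 and 1.67 CPM in the amygdala and 0.0488 and 0.341 CPM in the hippocampus. Gper1, also under it, had medians of 2.56 CPM in the amygdala and 2.71 CPM in the hippocampus.

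Of 26 receptors for monoamines, acetylcholine and cannabinoids that were tested, 11 were higher in the hippocampus and 12 in the amygdala. The dopamine receptors were opposed, since Drd5 was higher in the hippocampus while Drd1 (14.2, 20.8 and 29.1 CPM against 4.26, 5.18 and 7.6 CPM) and Drd2 (1.91, 5.07 and 12.9 CPM against 1.17, 1.76 and 2.11 CPM) were higher in the amygdala. The alpha-1 adrenergic receptors were opposed too, with Adra1d higher in the hippocampus and Adra1b 8.15, 13.3 and 19.5 CPM in the amygdala against 3.41, 4.27 and 5.96 CPM. Of the serotonin receptors, Htr1a (39.6, 46.6 and 51.7 CPM against 12.9, 17.6 and 22.7 CPM) and Htr4 (11.7, 15.1 and 17.3 CPM against 0.245, 3.34 and 5.32 CPM) were higher in the hippocampus, and Htr2c (80.1, 114 and 164 CPM against 26, 36.3 and 77.8 CPM) was higher in the amygdala. Htr2c is also a choroid plexus gene, and without the 3 animals with high choroid plexus markers its difference was -1.79 in place of -1.60.

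Of 17 ionotropic glutamate receptor genes, 7 were higher in the hippocampus, 3 of them at least 2-fold, and 8 were higher in the amygdala, 0 of them at 2-fold. In virgin animals alone 4 were called higher in the hippocampus. Gria1, the main AMPA receptor subunit of pyramidal cells, measured 1085, 1213 and 1334 CPM in the hippocampus against 492, 519 and 645 CPM in the amygdala. The NMDA receptor subunit Grin2a measured 35.5, 53.7 and 70.6 CPM against 11.1, 17.5 and 27.5 CPM, while Grin2b differed by 0.17 and Grin3a was higher in the amygdala (20.9, 33.7 and 47 CPM against 13.6, 16.6 and 20.8 CPM). Of the 7 metabotropic receptors, 3 were higher in the hippocampus, with Grm2 at 2.39-fold, and 2 were higher in the amygdala, with Grm8 at 2.17-fold.

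Of 14 GABA-A receptor subunits, 6 were higher in the hippocampus, 5 in the amygdala and 3 were not called. Gabra5, the alpha-5 subunit of extrasynaptic receptors, measured 169, 181 and 192 CPM in the hippocampus against 40.6, 46.2 and 51.2 CPM in the amygdala. This was a 3.92-fold difference (log2 difference 1.97, SE 0.038, adjusted p = 8.04e-23). Gabra3 was opposed to it, with 143, 186 and 209 CPM in the amygdala against 52.9, 73.2 and 90.6 CPM. The rarer subunits Gabrq and Gabre had medians of 3.68 and 1.83 CPM in the amygdala and of 0.206 and 0.0881 CPM in the hippocampus.

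Calcium signalling genes were mostly higher in the hippocampus, in 17 of 22 cases against 4 in the amygdala, with a median of 0.48. Ppp3ca, the catalytic subunit of calcineurin, measured 1263, 1464 and 1630 CPM against 572, 639 and 806 CPM. Camk2b, a CaM kinase II subunit, measured 1127, 1319 and 1580 CPM against 667, 812 and 924 CPM, and Camk2a differed by 0.15 only. The subunit Camk2d was a clear exception, with 217, 258 and 343 CPM in the amygdala against 29.2, 46.3 and 71.6 CPM in the hippocampus, or 5.87-fold higher in the amygdala.

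Genes induced by neuronal activity did not move as a group. Of 18 immediate early genes, 5 were higher in the hippocampus, 8 in the amygdala and 5 were not called, with a median of -0.10. Among all genes tested, 28.8% were higher in the hippocampus and 28.6% in the amygdala. Fos measured 12.6, 19.7 and 37.2 CPM in the amygdala against 4.63, 8.67 and 11.4 CPM in the hippocampus. Nr4a3, by contrast, measured 21.1, 29 and 38.5 CPM in the hippocampus against 6.5, 11.4 and 17.4 CPM, and Arc was higher in the hippocampus by 0.33 (SE 0.0787). Bdnf, the neurotrophin, differed by 0.28 (SE 0.0739).

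**Figure D3:**
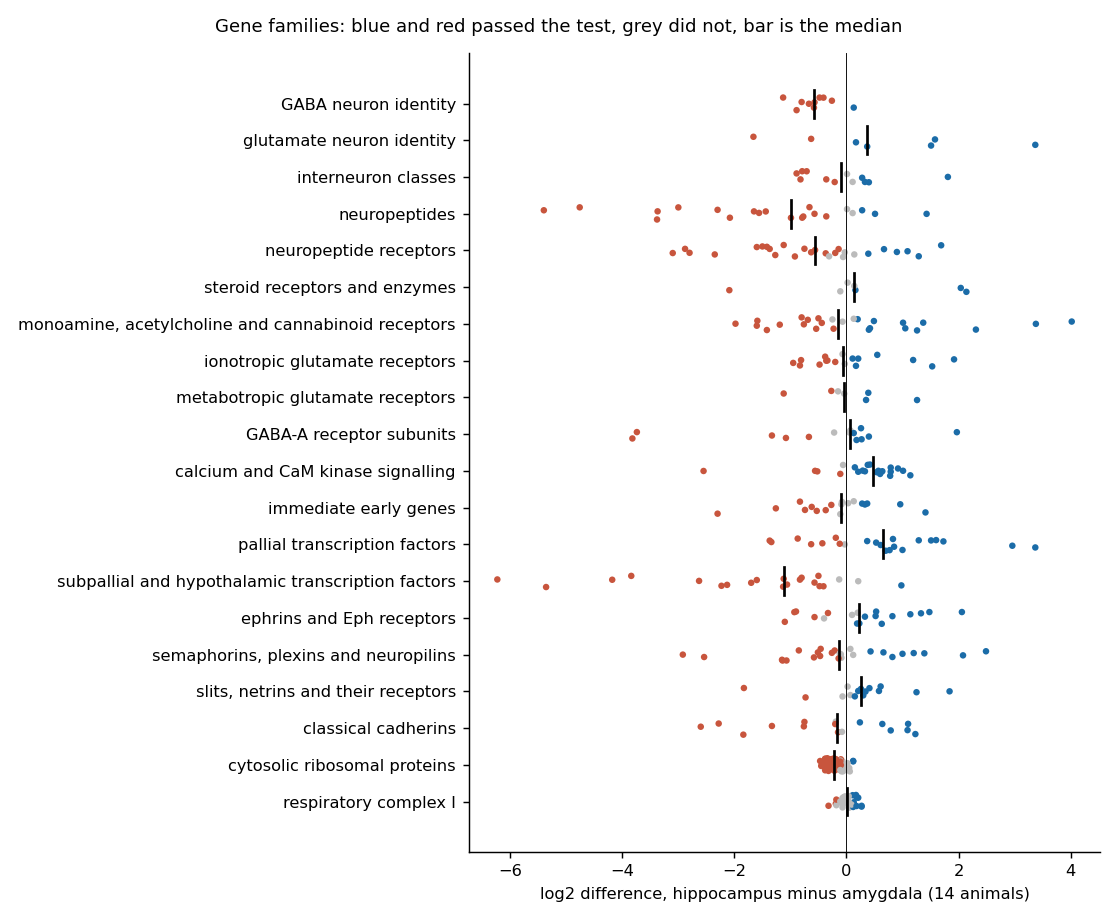
Log2 difference of each gene tested (hippocampus minus amygdala, 14 animals) for 20 families, with the colours and the median bar of the marker plot. Subpallial factors and neuropeptides lie mostly to the left, and pallial factors and calcium signalling genes lie mostly to the right. Ribosomal protein genes form a narrow band at a median of -0.23. The distance of Sim1, the farthest point to the left, is limited by depth in the hippocampus.

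Transcription factors were grouped into those of the pallium, the upper wall of the embryonic forebrain, and those of the subpallium and hypothalamus. Of 22 factors of the pallium, 14 were higher in the hippocampus, 7 in the amygdala and 1 was not called, with a median of 0.65. The shares over all genes tested were 28.8% higher in the hippocampus and 28.6% higher in the amygdala. Beside Neurod6 and Prox1, Lhx9 (log2 difference 1.73), Fezf2 (1.60), Neurod2 (1.51) and Zbtb20 (1.29) were more than 2-fold higher in the hippocampus. Neurod2 measured 166, 210 and 255 CPM against 60.6, 74.5 and 96.8 CPM. Mef2c, a regulator of synapse number, and Cux2, of upper cortical layers, were pallial factors more than 2-fold higher in the amygdala. Mef2c measured 276, 365 and 468 CPM there against 107, 141 and 192 CPM.

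Of 21 factors of the subpallium and hypothalamus that were tested, 18 were higher in the amygdala, 12 of them at least 2-fold, and 1 was higher in the hippocampus, with a median of -1.12. Foxp2, of intercalated and striatal neurons, measured 7.39, 13.1 and 24 CPM in the amygdala against 1.48, 2.25 and 4.37 CPM. Meis2, a TALE homeodomain factor, measured 102, 115 and 144 CPM against 45.6, 54.4 and 68.7 CPM. The member higher in the hippocampus was Foxp1, which is also a factor of pyramidal neurons (66.2, 78.8 and 90.7 CPM against 27.1, 41.2 and 51.8 CPM).

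Of 12 cortical layer markers, 4 were higher in the hippocampus and 8 in the amygdala, with a median of -0.69. Fezf2, of deep layers, was 3.04-fold higher in the hippocampus, and Rspo1 was 3.91-fold higher in the amygdala at low levels (1.87, 4.1 and 5.81 CPM against 0.567, 0.885 and 1.96 CPM).

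Genes of axon guidance and adhesion were found on both sides. Of 19 ephrins and Eph receptors tested, 11 were higher in the hippocampus and 5 in the amygdala, with a median of 0.23. Epha4, a receptor of dendritic spines, measured 361, 409 and 463 CPM in the hippocampus against 77.5, 98.9 and 129 CPM, or 4.17-fold. The ephrin ligand gene Efna5 was 2.15-fold higher in the amygdala, and Efnb2 was higher there too (log2 difference -0.93, SE 0.072). The receptor and the ligand with the largest differences in this family lay on opposite sides.

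Of 26 semaphorins, plexins and neuropilins, 8 were higher in the hippocampus and 13 in the amygdala. Sema3e, a secreted semaphorin, measured 74.1, 89.6 and 100 CPM in the hippocampus against 10.9, 16.7 and 20 CPM, or 5.63-fold. Its receptor gene Plxnd1 had the opposite pattern, with 157, 232 and 266 CPM in the amygdala against 24, 31.4 and 40.2 CPM, or 7.56-fold. Sema3a and Nrp1, a ligand and its receptor, were likewise opposed. Sema3a measured 18.5, 31.7 and 40.1 CPM in the amygdala against 4.09, 5.15 and 7.21 CPM, and Nrp1 measured 97.2, 125 and 146 CPM in the hippocampus against 17.9, 30.4 and 39.9 CPM. None of these 4 genes overlapped between the regions.

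Of 15 slits, netrins and their receptors, 10 were higher in the hippocampus and 2 in the amygdala. Slit1 measured 211, 255 and 297 CPM in the hippocampus against 87.5, 110 and 138 CPM, and the netrin receptor Unc5d was 3.54-fold higher in the amygdala (84.5, 102 and 112 CPM against 20.7, 25.9 and 41 CPM). Of 16 classical cadherins, 6 were higher in the hippocampus and 8 in the amygdala. Cdh4 was 6.08-fold higher in the amygdala (72, 88.7 and 105 CPM against 12.4, 14.5 and 17 CPM), Cdh22 followed with 81.1, 101 and 115 CPM against 14.4, 19.8 and 26.6 CPM, and Cdh8 was 2.35-fold higher in the hippocampus (51.9, 63.5 and 76.9 CPM against 18.5, 28.6 and 44.6 CPM).

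Ribosomal protein genes differed by small amounts. Of 74 cytosolic ribosomal protein genes tested, 57 were higher in the amygdala, 2 in the hippocampus and 15 were not called, where 57.4% of all genes tested were called, with a median of -0.23 and a range from -0.47 to 0.12. None reached 2-fold. Many of these genes have processed pseudogenes, and reads that fit more than 1 place were not counted. Rps15 had the largest difference, with 265, 371 and 426 CPM in the amygdala against 227, 269 and 308 CPM. Of 36 genes of respiratory complex I, 9 were higher in the hippocampus, 3 in the amygdala and 24 were not called, with a median of 0.0, and without animal 425 the count for the amygdala was 6.

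The regional difference was then compared between the states. In the 6 virgin animals alone, 5342 genes were called and 829 at 2-fold or more, and in the 8 primiparous animals alone, 5925 and 833. Of these, 4331 genes were called in both states in the same direction, which is 81.1% of the virgin and 73.1% of the primiparous calls, and 0 were called in opposite directions. All 843 genes with a difference of at least 2-fold over all animals had the same direction in both states, and 805 of them were called in both. These genes were chosen over the same animals, so that a shared direction follows largely from the choice. The 2 states' log2 differences of these genes lay apart by a median of 0.171.

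The interaction of region and state, which tests whether the regional difference depends on state, gave 0 calls (0.0%) at an adjusted p under 0.05 in edgeR, and the smallest adjusted p was 0.80. At an unadjusted p under 0.05, 762 genes (5.85%) passed. Among the 843 genes of at least 2-fold, the largest interaction was 3.69 in absolute size on the log2 scale, and it did not pass after adjustment. DESeq2 and limma-voom called 0 genes as well, with 810 and 824 genes at an unadjusted p under 0.05.

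The gene with the smallest interaction p was Slc32a1, the vesicular GABA transporter, whose regional difference changed by 0.61 between the states (SE 0.135, edgeR adjusted p = 0.80). In the amygdala it measured 152 ± 29.1 CPM (SD, n = 7) in virgin and 109 ± 24.1 CPM (SD, n = 8) in primiparous females, and in the hippocampus 74.5 ± 5.9 CPM and 80.9 ± 12.4 CPM. Rps27a, a ribosomal protein gene, and Prdm15, a zinc finger factor, followed with interactions of -0.39 (SE 0.0914) and -0.49 (SE 0.119). None of the 3 passed the test after adjustment. Of the 74 ribosomal protein genes, 26 were called higher in the amygdala in virgin animals alone and 58 in primiparous animals alone, and 0 of them passed the test of the interaction.

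**Figure D4:**
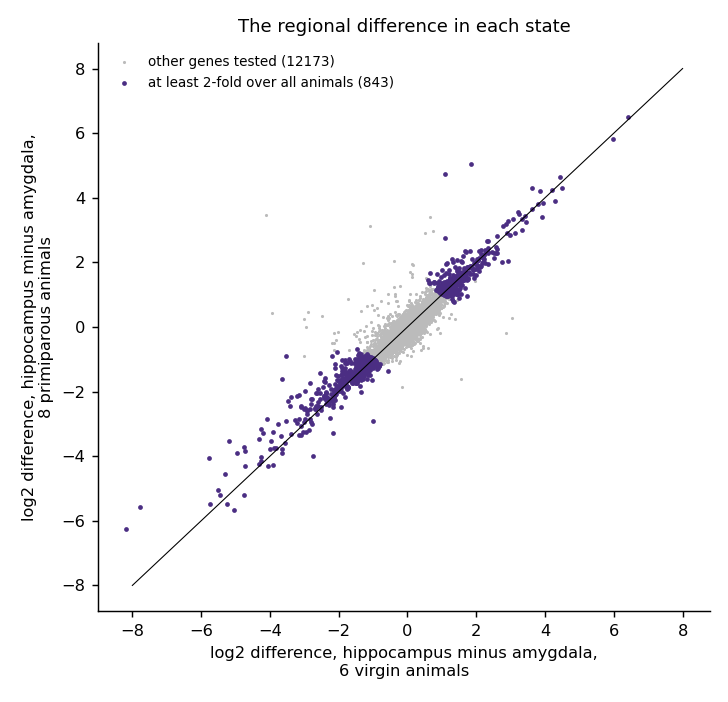
Log2 difference (hippocampus minus amygdala) of each of the 13016 genes in the 6 virgin animals (x axis) and the 8 primiparous animals (y axis), with the line of equal difference and the 843 genes of at least 2-fold over all animals in purple. All purple points have the same sign on both axes, and they were chosen over the same animals.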

How the data were processed

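Poly(A) RNA was made into libraries with the NEBNext Ultra kit by the authors, who sequenced single ends of 100 bases, aligned reads with HISAT2 to mm10 and counted reads that map once with featureCounts in Rsubread and its inbuilt annotation. The strand setting is not given in the sources used here, so overlapping and antisense genes cannot be told apart. There were 2 deposited tables, whole-number counts per gene (27179 genes, 77 libraries), used for all main results, and log2 values of 13016 genes, which the authors describe as log2(CPM + 4). Recomputed log2(CPM + 4) differed from these by a median of 3.94, and log2 of counts over median-of-ratios size factors plus 4 by a median of 0.00444, so the deposited log2 values are on that scale and served only as an alternative. Libraries that the authors removed as outliers are not analysed here.

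The 13016 genes that reached 5 CPM in 8 or more of the 77 libraries were tested in R 4.3.3 with edgeR 4.0.16 (TMM, robust quasi-likelihood F-test), the animal as a block and Benjamini-Hochberg adjustment over all genes. SE is the log2 difference divided by the square root of F. CPM values are counts scaled to a library total of 1000000. The labels give 1 number to all libraries of an animal, which pairs them; same-animal deviations from the group means correlated with a median of 0.0463 (from −0.0935 to 0.188), against −0.0129 for other animals. The fits were tested on simulated data. Symbols and positions are those of the deposited table, GENCODE M21 and RefSeq (12899 genes matched), all on GRCm38, which is mm10. Length and GC content were known for 12632 genes (97.05%). Alternatives were limma 3.58.1, DESeq2 1.42.0, other scalings and filters, thinning, a length and GC correction, each state alone and leaving out each animal. Summaries were made with pandas 2.3.3 and numpy 2.4.6 and figures with matplotlib 3.10.9, all in Python 3.11.15.

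The members and gene lists were chosen with earlier results of these data known. Named genes are the 12 with the largest difference in each direction among called genes with a mean of at least 10 CPM in the higher region and 1 direction in all 14 animals, list members at either extreme or with a role described, the 3 genes with the smallest interaction p and the 3 called at the smallest difference. A few genes that this rule names are not reported here.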

Additional observations from a re-analysis of the deposited data

Results flagged for a closer look

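Each of the 9 lists with a summed CPM in every library was tested for a library far from the others of its region and state by Dixon's test, in groups of 7 or 8, and so was each gene named above. Chance alone marks about 1 in 20 such groups. For the lists, 7 marks were given in 36 groups, each to the highest library of its group, and they fell on 4 libraries. In the hippocampus, the cerebellum list stood at 628 CPM in primiparous animal 413 and at 63.4 CPM in virgin animal 4487. The choroid plexus list stood at 4034 CPM in primiparous animal 425 and at 3624 CPM in virgin animal 4487, where the median of the 15 hippocampus libraries was 104 CPM. The list of meningeal fibroblasts stood at 251 CPM in the hippocampus of primiparous animal 425. The thalamus list stood at 245 CPM in the hippocampus of virgin animal 4487 and at 189 CPM in the amygdala of primiparous animal 425. Their part in the differences between regions was not tested beyond the values without animals 413, 4486 and 421, 425 and 4488 given above.

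For the named genes, 56 marks (10.1%) were given in 556 groups, and they fell on 16 libraries. The amygdala library of virgin animal 4486 was highest of its group in C1ql3 (190 CPM), Camk2d (343 CPM), Cdh8 (44.6 CPM), Grm8 (27.7 CPM), Htr2c (164 CPM), Npy2r (33.3 CPM), Nr2f2 (136 CPM) and Slc17a6 (103 CPM) and lowest of its group in Nrp1 (17.9 CPM). In the hippocampus, the library of primiparous animal 413 was highest of its group in Gabra6 (54.3 CPM), Hcrt (0.39 CPM), Oxt (2.59 CPM), Pcp4 (144 CPM), Pvalb (82.1 CPM) and Trh (1.32 CPM) and lowest of its group in Lhx9 (10 CPM), Npy5r (5.41 CPM) and Slc9a4 (11.9 CPM). That of primiparous animal 427 in the hippocampus was highest of its group in Drd1 (7.6 CPM), Npy (57 CPM), Otof (10.8 CPM) and Otp (0.227 CPM) and lowest of its group in Gng7 (184 CPM) and Neurod2 (166 CPM). The hippocampus library of virgin animal 4487 was highest of its group in Gabra6 (1.77 CPM), Kl (170 CPM), Prkcd (82.9 CPM), Prlr (67 CPM), Six3 (6.3 CPM) and Ttr (3219 CPM). In the amygdala, the library of virgin animal 409 was highest of its group in Gfap (724 CPM) and Otp (6.16 CPM) and lowest of its group in Cck (169 CPM), Cckbr (29.2 CPM) and Sstr3 (27.8 CPM). That of primiparous animal 425 in the hippocampus was highest of its group in Hba-a2 (36.6 CPM), Htr2c (77.8 CPM), Kl (176 CPM), Prlr (74.3 CPM) and Ttr (3598 CPM). The amygdala library of primiparous animal 427 was highest of its group in Gfap (726 CPM), Hcrt (15.8 CPM) and Srd5a1 (14.9 CPM). In the hippocampus, the library of virgin animal 409 was highest of its group in Wfs1 (187 CPM) and lowest of its group in Lhx9 (8.41 CPM) and Nrp1 (102 CPM). That of primiparous animal 418 in the amygdala was highest of its group in C1ql2 (10.9 CPM) and Cabp7 (15.5 CPM). The amygdala library of primiparous animal 421 was highest of its group in Prlr (23 CPM) and lowest of its group in Cckbr (33.2 CPM). In the amygdala, the library of virgin animal 405 was highest of its group in Pou3f1 (30.6 CPM). That of virgin animal 4488 in the amygdala was highest of its group in Adra1d (16.3 CPM). The amygdala library of primiparous animal 4493 was highest of its group in Slc17a8 (3.62 CPM). In the hippocampus, the library of primiparous animal 415 was highest of its group in Sim1 (0.271 CPM). That of virgin animal 4488 in the hippocampus was lowest of its group in Lct (35.6 CPM). The hippocampus library of virgin animal 4489 was highest of its group in Sim1 (0.0411 CPM).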

How the results depend on the processing

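Values and calls were recomputed under other tests, scalings and filters and without each animal in turn. The total of 7467 called genes ranged from 5342, in virgin animals alone, to 8215, with no filter on low counts, and from 7116 without animal 4489 to 7528 without animal 425 when 1 animal was left out. The 843 genes with a difference of at least 2-fold became 430 with limma-trend on log2(CPM + 4), a scale on which the added 4 shrinks the differences of genes with low CPM by construction, and 1579 with no filter on low counts, where more genes were tested. Without single animals this count ranged from 826 to 857. The interaction of region and state gave 0 calls in each fit, with 606 to 907 genes at an unadjusted p under 0.05 when single animals were left out. Without the pairing by animal (no replicate block, all 30 libraries), 7703 genes were called, 843 of them at 2-fold or more, with 0 interaction calls. Of the 128 called genes named above, 111 kept their call and direction in each alternative and 17 lost the call in at least 1. Of the 88 counts of list members called in a direction, 26 moved by over 1.5 times in some alternative, 16 of them in virgin animals alone, 11 in primiparous animals alone and 8 with the length and GC correction, where complex I genes higher in the hippocampus went from 9 to 16. With the filter over the 30 libraries, which tests fewer genes, the hypothalamus markers higher in the amygdala went from 10 to 2 and the choroid plexus markers higher in the hippocampus from 5 to 2. The pericyte and ependymal lists, with 2 calls each, lost 1 of them without any of several animals. Without animal 409, 2 striatal markers were called higher in the hippocampus, where 0 were with all animals. The cause of these changes was not tested. Among the called genes named above, the only reversal was Rps27a in virgin animals alone (log2 difference 0.05). The fits on the deposited log2 values and without animals 421, 425 and 4488 were added after seeing the data. Depth limits the genes near 0 in the hippocampus, such as Sim1 and Otp, whose fold differences are not given.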
